A study of Mus musculus with 8 samples.

Results

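The genes described here encode the enzymes of the tricarboxylic acid (TCA) cycle with the entry of pyruvate into it, and the enzymes that break down the branched-chain amino acids leucine, isoleucine and valine. They were taken from a list of 39 gene symbols, 21 for the TCA cycle and pyruvate entry and 18 for the branched-chain pathway. The array annotation paired 38 of them with a probe set of their own, out of 12393 genes measured, and all 38 were bright enough to be among the 9293 genes tested. Pdhx is not analysed here.

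RNA came from adipocytes differentiated in culture out of stromal-vascular cells of the inguinal white fat of male C57BL/6J mice. All cells expressed a short hairpin RNA, either sh-PRDM16, directed at the transcriptional co-regulator PRDM16, or the control sh-scr. The 4 groups were sh-PRDM16 cells with 1 µM rosiglitazone, an agonist of the nuclear receptor PPARγ, sh-PRDM16 cells with no agent, sh-scr cells with 1 µM rosiglitazone, and sh-scr cells with no agent, and each had 2 Affymetrix mouse arrays. They are called treated and untreated below. The labels call the arrays of a group biological replicates but name no separate animals or cultures, so the p-values measure the spread between these arrays only. Neither the age of the mice nor the length of treatment nor the way the hairpins were delivered is stated in the labels. Prdm16 itself has no probe set paired with it here, so the knockdown was not checked and the groups rest on their labels.

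As background, the TCA cycle oxidises acetyl-CoA in the mitochondrial matrix and feeds the respiratory chain, and pyruvate reaches it through the pyruvate dehydrogenase complex or through pyruvate carboxylase. Branched-chain amino acids are first transaminated and then decarboxylated by the branched-chain ketoacid dehydrogenase complex, after which leucine ends in acetyl-CoA and acetoacetate, isoleucine in acetyl-CoA and propionyl-CoA, and valine in propionyl-CoA. Propionyl-CoA enters the TCA cycle as succinyl-CoA. Adipocytes run both pathways and draw acetyl-CoA for fatty acid synthesis from them, and brown adipocytes are rich in their mitochondrial enzymes.

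The cells carried adipocyte RNA in every group. Summed intensity of the 9 measured of 10 adipocyte markers was 66598 to 71929 in treated and 46069 to 52425 in untreated sh-PRDM16 arrays, and 75737 to 80504 in treated and 73628 to 74911 in untreated sh-scr arrays. Macrophage and leukocyte markers (9 of 9 measured) summed to 862 to 898 in treated and 1065 to 1136 in untreated sh-PRDM16 arrays, and to 3312 to 3348 in treated and 5147 to 5642 in untreated sh-scr arrays. The median intensity of an array ran from 100.7 to 135.7 with 107.9 and 100.7 in the treated sh-scr arrays, against 127 and 135.7 in the untreated ones, so all genes together shifted. The median log2 change over all genes was 0.00 for rosiglitazone in sh-PRDM16 cells, -0.31 for rosiglitazone in sh-scr cells, -0.16 for sh-PRDM16 against sh-scr without the drug and 0.15 with it. Counts of called members are therefore given below on the deposited scale, and most of them also with each array centred on its median. Replicate arrays correlated at r = 0.991 to 0.993 over the 9293 genes tested, above any correlation with another group (at most 0.977).

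Promoters were searched for the sequences that PPARγ and related nuclear receptors are known to bind, because the treatment acts through PPARγ. Of the members, 37 had an entry in the RefSeq promoter table (GRCm38.p6), with 48 windows of the 250 bases before an annotated start. The PPAR direct repeat AGGTCANAGGTCA was in 0 of the 48 windows, against 0.0335% of all 32851 windows, both strands counted. The estrogen-related receptor element TCAAGGTCA was also in 0, against 0.387% of all. Both motifs are so rare that 48 windows were likely to hold none, so these counts cannot show that the members lack them. The single hexamer AGGTCA, which is contained in both of these motifs, was in 5 member windows (10.4%), against 14% of all. They belong to Fh1 (minus strand, chr1:175625636-175625885), Bckdhb (plus strand, chr9:83924887-83925110), Sucla2 (plus strand, chr14:73552536-73552785), Pcca (plus strand, chr14:122484115-122484364) and Aldh6a1, whose window precedes a second start and lies within the gene. The first 4 are printed to show where the hexamer stands in members described below, limited to bases outside the annotated gene, with the hexamer or its complement TGACCT in capitals. A match in letters is a description of the window and was not tested as a binding site.
Fh1: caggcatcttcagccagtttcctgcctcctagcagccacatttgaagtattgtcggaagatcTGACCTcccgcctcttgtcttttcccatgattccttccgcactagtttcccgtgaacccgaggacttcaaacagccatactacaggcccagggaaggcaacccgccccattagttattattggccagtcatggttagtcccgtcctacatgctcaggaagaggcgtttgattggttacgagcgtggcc
Bckdhb: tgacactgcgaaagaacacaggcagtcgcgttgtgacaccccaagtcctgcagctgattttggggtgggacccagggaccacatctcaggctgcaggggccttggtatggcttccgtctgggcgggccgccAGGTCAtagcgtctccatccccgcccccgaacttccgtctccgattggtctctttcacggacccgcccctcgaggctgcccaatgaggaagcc
Sucla2: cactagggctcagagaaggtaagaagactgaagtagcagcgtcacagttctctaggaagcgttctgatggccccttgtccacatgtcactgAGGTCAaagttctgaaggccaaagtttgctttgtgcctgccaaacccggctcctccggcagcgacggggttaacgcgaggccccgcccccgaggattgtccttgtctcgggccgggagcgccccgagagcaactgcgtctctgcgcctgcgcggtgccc
Pcca: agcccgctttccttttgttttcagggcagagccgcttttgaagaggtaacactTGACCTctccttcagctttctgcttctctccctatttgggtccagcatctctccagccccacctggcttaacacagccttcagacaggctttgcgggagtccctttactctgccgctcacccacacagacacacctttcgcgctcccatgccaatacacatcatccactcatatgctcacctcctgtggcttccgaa
The hexamer began 188 bases before the start in Fh1 and 197 in Pcca, in both on the opposite strand, and 119 before it in Bckdhb and 159 in Sucla2, on the gene's strand.

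Rosiglitazone raised TCA cycle and pyruvate entry genes in both lines, and lowered none past the threshold in either. In sh-PRDM16 cells 17 of the 20 rose, where 10.2% of all genes rose and 3.35% fell (limma, Benjamini-Hochberg adjusted p under 0.05). In sh-scr cells 7 rose, namely Idh3a, Dlat, Pdhb, Suclg1, Idh3b, Fh1 and Sucla2, where 5.24% of all genes rose and 32.3% fell. The median log2 change over the 20 was 0.78 in sh-PRDM16 and 0.31 in sh-scr cells. With arrays centred on their medians 18 rose in sh-PRDM16 cells (15% of all genes rose and 9.62% fell) and 15 in sh-scr cells (14.7% of all genes rose and 11.3% fell). The call gained by centring was Pdha1 in sh-PRDM16 cells, and those gained in sh-scr cells were Cs, Idh3g, Ogdh, Dlst, Dld, Mdh2, Pdha1 and Pcx. When untreated sh-scr replicate 1 was left out, Idh3a was the 1 gene still called in sh-scr cells, and leaving out treated sh-scr replicate 2 gave 3 calls. The sh-PRDM16 count was 10 without untreated and 9 without treated sh-PRDM16 replicate 2. In the same comparisons 2 of 8 tested preadipocyte and fibroblast markers fell in sh-PRDM16 cells and 6 fell in sh-scr cells, and with centred arrays 5 fell in each line. Of 6 smooth muscle and pericyte markers 3 fell in sh-PRDM16 and 5 in sh-scr cells, of 6 endothelial markers 2 and 3, and of 8 tested macrophage markers 1 and 4. With centred arrays these falls were 3 and 4, 2 and 1, and 1 and 2. None of these markers rose in either line. Of the 9 adipocyte markers 4 rose and 1 fell in sh-PRDM16 cells, and 3 rose and 1 fell in sh-scr cells. With centred arrays 5 adipocyte markers rose and 1 fell in sh-PRDM16 cells, and 4 rose and 1 fell in sh-scr cells. The log2 gap between the 3′ and 5′ control probe sets of Actb, a sign of RNA integrity, was 0.33 and 0.34 in treated and 0.25 and 0.29 in untreated sh-PRDM16 arrays, and 0.38 and 0.49 in treated and 0.31 and 0.30 in untreated sh-scr arrays. The same gap for Pcx, a member, was 4.26 and 4.03 in treated and 3.58 and 3.83 in untreated sh-PRDM16 arrays. In sh-scr arrays it was 3.91 and 4.22 treated and 3.84 and 3.86 untreated. For Gapdh it was -0.35 and -0.33 in treated and -0.40 and -0.44 in untreated sh-PRDM16 arrays. In sh-scr arrays that of Gapdh was -0.35 and -0.35 treated and -0.41 and -0.43 untreated. Control probe sets of Pcx were not tested for change. The part of the markers and of RNA integrity in the drug response was not tested.

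Without the drug, sh-PRDM16 cells had less RNA of most TCA genes than sh-scr cells. Of the 20, 15 fell and none rose, where 15.7% of all genes fell and 1.98% rose, and the median log2 difference was -0.60. The 5 not called were Idh2, Ogdh, Dlst, Suclg2 and Mdh2, with log2 differences of -0.50, -0.30, -0.29, -0.39 and -0.19. In bulk RNA, fewer adipocytes and less of these RNAs per adipocyte cannot be told apart. On the deposited scale 8 of the 9 adipocyte markers and 6 of the 8 tested macrophage markers fell in the same comparison. Of 6 smooth muscle and pericyte markers and of 2 tested skeletal muscle markers, 1 each was higher and none lower. Of 8 tested preadipocyte and fibroblast markers 1 was lower, and of 6 endothelial markers none was called. The part of these markers in the result was not tested. The count of 15 also stood with centred arrays (12.5% of all genes fell and 9.51% rose), and was 9 without untreated sh-scr replicate 1 and 7 without either untreated sh-scr replicate 2 or untreated sh-PRDM16 replicate 2.

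With rosiglitazone in both lines few TCA genes were called on the deposited scale, and the count depended on the scaling. By their brightest probe sets only Dld fell among the 20, where 4.77% of all genes fell and 10.6% rose, and the median log2 difference was -0.20. In the limma fit over 15008 probe sets, dimmer probe sets of Mdh1 were lower at -1.00 (adjusted p = 0.00420) and -0.74 (adjusted p = 0.0494). The dimmest of Mdh1, at -0.58 (adjusted p = 0.283), was not called. The dimmer probe set of Pdhb was lower at -0.82 (adjusted p = 0.00625). With centred arrays 13 of the 20 fell and none rose, where 12.2% of all genes fell and 12.8% rose, and the median was -0.32. Beside Dld these were Idh1, Idh2, Idh3a, Idh3b, Suclg1, Sucla2, Fh1, Mdh1, Pdha1, Pdhb, Dlat and Pcx. On the deposited scale 4 of 9 adipocyte and 7 of 8 macrophage markers fell in this comparison. Smooth muscle and pericyte markers were higher in 2 of 6 cases and none was lower. Of 2 tested skeletal muscle and 8 preadipocyte and fibroblast markers, 1 each was higher, and of 6 endothelial markers 1 was lower. The part of these markers was not tested either.

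**Figure D1:**
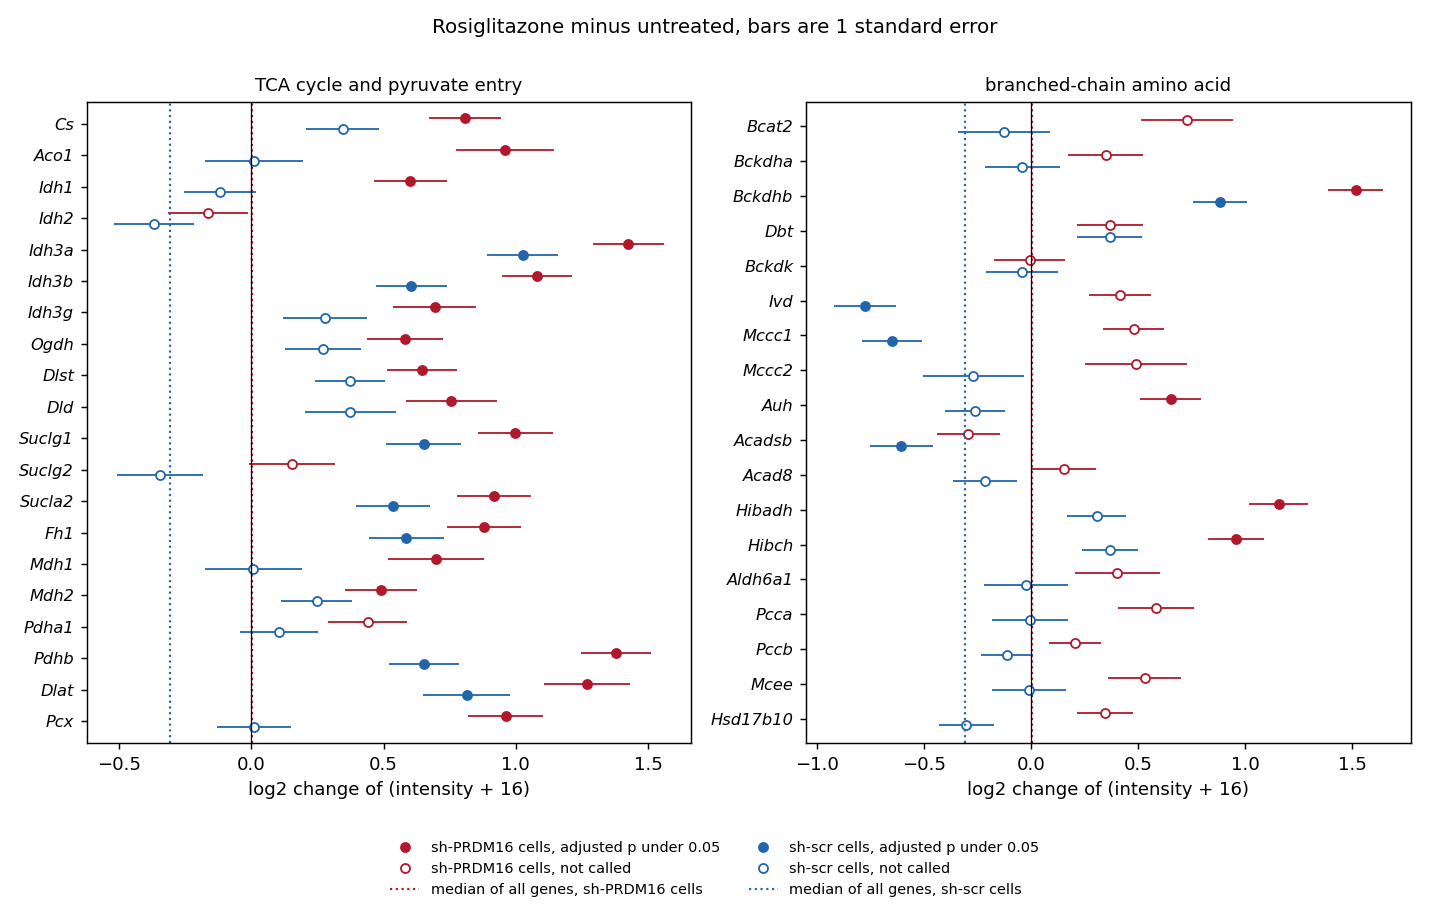
Log2 change of intensity + 16 with rosiglitazone against untreated cells for the 20 TCA and pyruvate entry genes (left) and the 18 branched-chain genes (right), in sh-PRDM16 cells (red) and sh-scr cells (blue). Bars are 1 standard error, filled points passed an adjusted p of 0.05, and dotted lines mark the median of all genes, which lay at 0.00 in sh-PRDM16 and -0.31 in sh-scr cells. Most TCA points lie right of both lines, and Ivd, Mccc1 and Acadsb stand to the left in sh-scr cells.

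Among subunits of the pyruvate dehydrogenase complex, which turns pyruvate into acetyl-CoA, Pdhb and Dlat responded to the drug in both lines and Pdha1 passed the test in both only after the arrays were scaled. Pdhb encodes the β subunit of the dehydrogenase and had 6617 and 7181 in treated and 2830.1 and 2459 in untreated sh-PRDM16 cells, and 8086 and 8268 in treated and 5014 and 5388 in untreated sh-scr cells. Treated arrays lay above untreated ones in each line, and untreated sh-PRDM16 arrays were the lowest of all. Pdhb rose by log2 1.38 (SE 0.13, adjusted p = 0.000194) in sh-PRDM16 and 0.65 (SE 0.13, adjusted p = 0.00796) in sh-scr cells, and was lower in sh-PRDM16 cells without the drug, at -0.97 (SE 0.13, adjusted p = 0.00140). Dlat, the acetyltransferase core, had 3047 and 3228 in treated and 1438 and 1160.0 in untreated sh-PRDM16 cells, and 3829 and 3989.6 in treated and 1948 and 2522 in untreated sh-scr cells. Its groups did not overlap in any of the 4 comparisons. Dlat rose by 1.27 (SE 0.16, adjusted p = 0.00102) in sh-PRDM16 and 0.81 (SE 0.16, adjusted p = 0.00784) in sh-scr cells, and the untreated lines differed by -0.77 (SE 0.16, adjusted p = 0.0124). The call between untreated lines was lost without untreated sh-scr replicate 2 (-0.59) or untreated sh-PRDM16 replicate 2 (-0.62). The dimmest probe set of Dlat had -0.51 there (adjusted p = 0.0630 over 15008 probe sets). Without untreated sh-scr replicate 1 the sh-scr rises of Dlat and Pdhb had adjusted p-values of 0.0530 and 0.0537, and without treated sh-scr replicate 2 that of Pdhb had 0.0504.

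Dld encodes the lipoamide dehydrogenase that the pyruvate, oxoglutarate and branched-chain complexes share. It had 1304 and 1620.5 in treated and 996 and 731 in untreated sh-PRDM16 cells, and 2191 and 2271 in treated and 1712 and 1724 in untreated sh-scr cells. Untreated sh-PRDM16 arrays were lowest and treated sh-scr arrays highest, with no overlap between groups. Dld rose with the drug in sh-PRDM16 cells by 0.76 (SE 0.17, adjusted p = 0.0197) and not past the threshold in sh-scr cells, at 0.37 (SE 0.17, adjusted p = 0.111) on the deposited scale, but with centred arrays Dld rose there by 0.68 (adjusted p = 0.00797). It was lower in sh-PRDM16 cells without the drug by log2 1.00 (SE 0.17, adjusted p = 0.00491) and with it by 0.61 (SE 0.17, adjusted p = 0.0429). The call between treated lines was kept in 8 of the 16 alternative settings described below. That call was lost with no filter (adjusted p = 0.0870) and with pseudocount 1 (0.0721). It was also lost without any one of the 4 treated arrays (log2 -0.46 to -0.77) or either untreated sh-scr array. The drug rise of Dld in sh-PRDM16 cells was kept in 13 of 16. Pdha1, the α subunit of pyruvate dehydrogenase, fell in untreated sh-PRDM16 cells by log2 0.54 (adjusted p = 0.0358). Its drug response on the deposited scale was 0.44 (adjusted p = 0.0839) in sh-PRDM16 and 0.11 (adjusted p = 0.580) in sh-scr cells. With centred arrays Pdha1 rose in both, by 0.43 (adjusted p = 0.0128) and 0.41 (adjusted p = 0.0153), and it was also called in both with quantile normalization (adjusted p = 0.0238 and 0.0317). The dimmer probe set of Pdha1 rose in sh-PRDM16 cells on the deposited scale, by 0.64 (adjusted p = 0.0219 over 15008 probe sets).

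Pyruvate carboxylase (Pcx) makes oxaloacetate from pyruvate and so refills the cycle. Its intensity was 2405 and 2912 in treated and 1428 and 1278 in untreated sh-PRDM16 cells, and 3023 and 3049.6 in treated and 2889 and 3147 in untreated sh-scr cells. The untreated sh-PRDM16 arrays stood apart at the low end, and the 6 others lay between 2405 and 3147. Pcx was lower in untreated sh-PRDM16 than in untreated sh-scr cells by log2 1.15 (SE 0.14, adjusted p = 0.000822) and rose with the drug in sh-PRDM16 cells by 0.96 (SE 0.14, adjusted p = 0.00219), whereas in sh-scr cells the change was 0.01 (SE 0.14, adjusted p = 0.959). The difference between those responses, 0.95 (95% interval 0.50 to 1.40, adjusted p = 0.0674), did not pass the threshold. With centred arrays Pcx rose in sh-scr cells too, by 0.31 (adjusted p = 0.0336), and the difference between the responses was 0.64 (adjusted p = 0.1).

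The largest drug response of the TCA list was that of Idh3a. Idh3a, the catalytic subunit of the NAD-dependent isocitrate dehydrogenase of the cycle, had 6321 and 7243 in treated and 2657 and 2369.5 in untreated sh-PRDM16 cells, and 8709 and 9171 in treated and 4251 and 4509 in untreated sh-scr cells. Treated arrays read above all untreated arrays, and within each treatment sh-PRDM16 arrays read below sh-scr arrays. Idh3a rose by 1.43 (SE 0.13, adjusted p = 0.000178) in sh-PRDM16 and 1.03 (SE 0.13, adjusted p = 0.00133) in sh-scr cells, and both calls held in 16 of 16 alternative settings, which vary the scaling, the filter, the pseudocount and the choice of probe sets, add a replicate block, or leave out 1 array. Its difference between untreated lines was -0.80 (SE 0.13, adjusted p = 0.00432), and with the drug it was -0.40 (SE 0.13, adjusted p = 0.0729), or -0.52 (adjusted p = 0.00759) with centred arrays. Idh3b, a further subunit of that enzyme, had 4972 and 5343 in treated and 2615 and 2255 in untreated sh-PRDM16 cells, and 6530.4 and 6564 in treated and 4124 and 4478 in untreated sh-scr cells. It followed the same order of groups, and rose by 1.08 (SE 0.13, adjusted p = 0.000745) in sh-PRDM16 and 0.61 (SE 0.13, adjusted p = 0.0104) in sh-scr cells. Leaving out untreated sh-scr replicate 1 or treated sh-scr replicate 2, the sh-scr rise of Idh3b had an adjusted p of 0.0695 and 0.0597. The third subunit, Idh3g, rose in sh-PRDM16 cells by 0.69 (SE 0.16, adjusted p = 0.0197).

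Citrate synthase (Cs), which joins acetyl-CoA to oxaloacetate, rose with the drug in sh-PRDM16 cells by 0.81 (SE 0.14, adjusted p = 0.00478), against 0.35 (SE 0.14, adjusted p = 0.0741) in sh-scr cells on the deposited scale and 0.65 (adjusted p = 0.00268) with centred arrays. The dimmer probe sets of Cs rose in sh-scr cells on the deposited scale, by 0.45 and 0.59 (adjusted p = 0.0488 and 0.0157 over 15008 probe sets). Aco1, the cytosolic aconitase that also acts as an iron regulatory protein, rose in sh-PRDM16 cells by 0.96 (SE 0.19, adjusted p = 0.00918) and had 0.01 (SE 0.19, adjusted p = 0.966) in sh-scr cells.

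Neither NADP-dependent isocitrate dehydrogenase rose with the drug in sh-scr cells. Idh1, the cytosolic enzyme and a source of NADPH, had 6960.0 and 7638 in treated and 5253 and 4385 in untreated sh-PRDM16 cells, and 8639.8 and 8833 in treated and 9184 and 9794 in untreated sh-scr cells. All 4 sh-PRDM16 arrays lay below all 4 sh-scr arrays. Idh1 was lower in untreated sh-PRDM16 than in untreated sh-scr cells by log2 0.98 (SE 0.14, adjusted p = 0.00170). It rose with the drug in sh-PRDM16 cells by 0.60 (SE 0.14, adjusted p = 0.0202), and did not change past the threshold in sh-scr cells (-0.12 (SE 0.14, adjusted p = 0.504)). The Idh1 rise was kept in 12 of 16 alternatives, and was lost with the mean of probe sets (0.54, adjusted p = 0.0576). For this rise the dimmer probe set of Idh1 had 0.48 (adjusted p = 0.172 over 15008 probe sets). Idh2, the mitochondrial NADP-dependent enzyme, was called in no comparison on the deposited scale, and its log2 changes with the drug were -0.16 in sh-PRDM16 and -0.37 in sh-scr cells. In treated sh-PRDM16 against treated sh-scr cells it had -0.29 (adjusted p = 0.205), and was called lower there with centred arrays at -0.41 (adjusted p = 0.0337) and with quantile normalization at -0.44 (adjusted p = 0.0244).

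In the later steps of the cycle, succinyl-CoA ligase and fumarase moved with the drug in both lines. Suclg1, the α subunit common to both forms of the ligase, had 3883 and 4479.9 in treated and 2251 and 1922 in untreated sh-PRDM16 cells, and 4754 and 4954 in treated and 2924 and 3249 in untreated sh-scr cells. Each treated array lay above every untreated array. Suclg1 rose by 1.00 (SE 0.14, adjusted p = 0.00182) in sh-PRDM16 and 0.65 (SE 0.14, adjusted p = 0.0103) in sh-scr cells, and the sh-scr call was lost without untreated sh-scr replicate 1 (adjusted p = 0.0666) or treated sh-scr replicate 2 (0.0613). Of the β subunits, Sucla2, which serves the ATP-forming enzyme, rose by 0.92 (SE 0.14, adjusted p = 0.00281) in sh-PRDM16 and 0.54 (SE 0.14, adjusted p = 0.0194) in sh-scr cells, while Suclg2, which serves the GTP-forming one, had 0.15 (SE 0.16, adjusted p = 0.602) and -0.35 (SE 0.16, adjusted p = 0.115) in these lines. Fumarase (Fh1) rose by 0.88 (SE 0.14, adjusted p = 0.00344) in sh-PRDM16 and 0.59 (SE 0.14, adjusted p = 0.0140) in sh-scr cells. Ogdh and Dlst, the dehydrogenase and transferase of the oxoglutarate complex, rose in sh-PRDM16 cells by 0.58 and 0.65 (adjusted p = 0.0283 and 0.0120).

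Both malate dehydrogenases rose with the drug in sh-PRDM16 cells, the mitochondrial Mdh2 by 0.49 (SE 0.13, adjusted p = 0.0427) and the cytosolic Mdh1 by 0.70 (SE 0.18, adjusted p = 0.0349). The Mdh1 call was kept in 10 of 16 alternatives, and was lost with no filter (adjusted p = 0.0803), with pseudocount 1 (0.0662), with the mean of probe sets (0.0887), and without untreated sh-PRDM16 replicate 2 (log2 0.44, adjusted p = 0.132), treated sh-PRDM16 replicate 1 (0.0562) or treated sh-PRDM16 replicate 2 (0.171). In sh-scr cells Mdh2 had 0.25 (adjusted p = 0.166) on the deposited scale and rose by 0.55 (adjusted p = 0.00380) with centred arrays. Mdh1 had 6696 and 7901 in treated and 5359.5 and 3734 in untreated sh-PRDM16 cells, and 8995 and 10154 in treated and 9478 and 9529.9 in untreated sh-scr cells. The sh-PRDM16 arrays all lay below the sh-scr arrays, and treated and untreated sh-scr arrays overlapped, with a log2 change of 0.01 (SE 0.18, adjusted p = 0.975). The untreated lines differed in Mdh1 by -1.08 (SE 0.18, adjusted p = 0.00432). Mdh2, by contrast, had -0.19 (SE 0.13, adjusted p = 0.381) in that comparison.

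**Figure D2:**
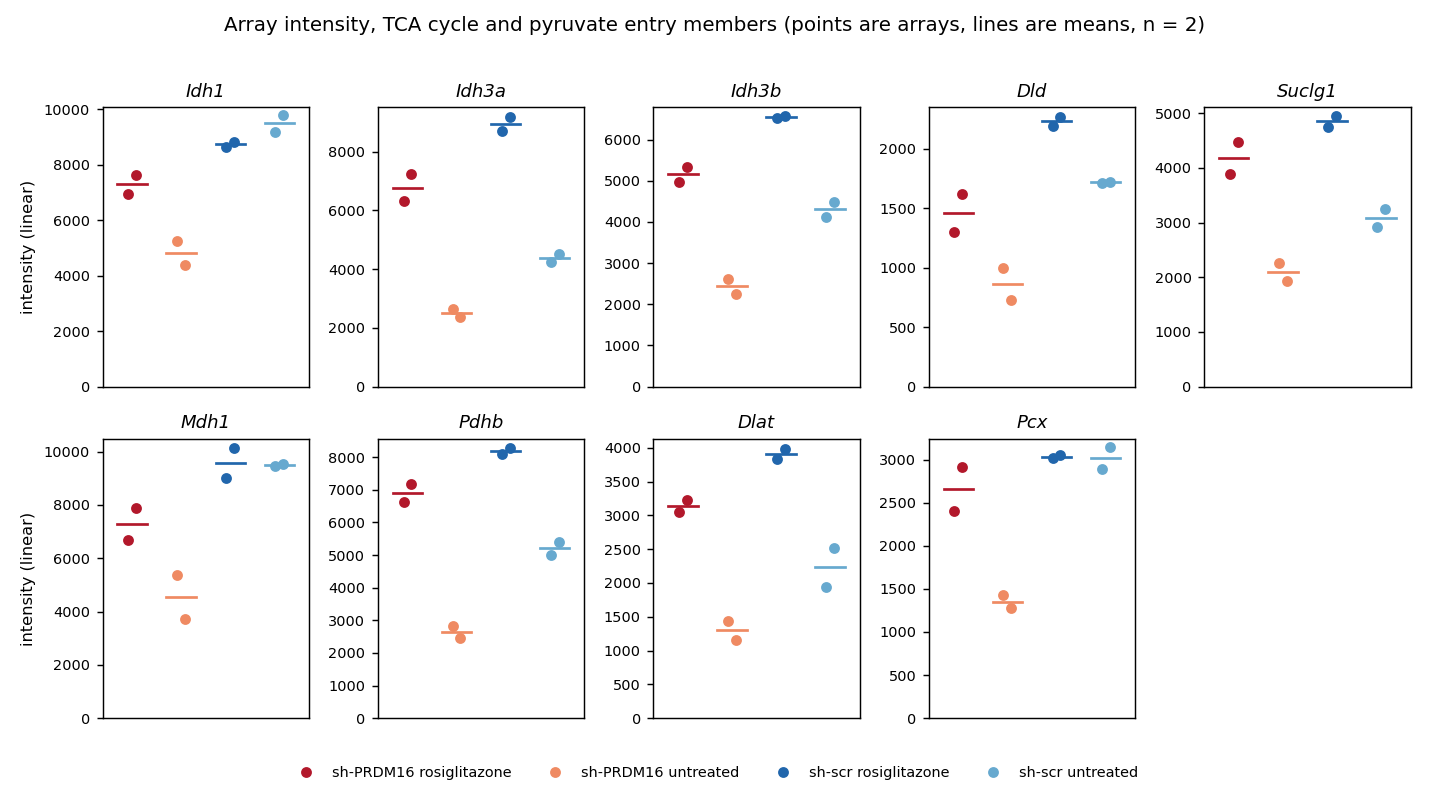
Array intensity (linear scale, from 0) of the 9 TCA and pyruvate entry genes with the largest called changes, in treated and untreated sh-PRDM16 cells and treated and untreated sh-scr cells. Points are single arrays and lines are means of 2 arrays. Untreated sh-PRDM16 arrays hold the lowest values in all 9 panels, and for Pcx, Mdh1 and Idh1 the treated and untreated sh-scr arrays lie close together.

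On the deposited scale few branched-chain genes passed the test for a response to the drug, and most were lower with sh-PRDM16 in untreated cells. In sh-PRDM16 cells 4 of 18 rose with rosiglitazone and none fell, namely Bckdhb, Hibadh, Hibch and Auh, a share of members to be read against 10.2% of all genes. In sh-scr cells 1 rose (Bckdhb) and 3 fell (Ivd, Mccc1 and Acadsb), against 5.24% and 32.3% of all genes. The median log2 change over the 18 was 0.45 in sh-PRDM16 and -0.08 in sh-scr cells, and the sh-scr median turned to 0.23 with centred and 0.20 with quantile-normalized arrays. With centred arrays 10 rose and 1 fell in sh-PRDM16 cells, where 15% of all genes rose and 9.62% fell, and 4 rose and 3 fell in sh-scr cells, where 14.7% rose and 11.3% fell. Centring added rises of Bcat2, Dbt, Mccc1, Pcca, Mcee and Hsd17b10 and a fall of Acadsb in sh-PRDM16 cells, and rises of Dbt, Hibadh and Hibch in sh-scr cells. The 4 sh-scr calls became 2 when replicate 2 of the untreated or of the treated sh-scr cells was left out.

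Without the drug, 16 of 18 branched-chain genes were lower in sh-PRDM16 than in sh-scr cells and none was higher, with a median log2 difference of -1.03. The background was 15.7% of all genes lower. Bckdk and Acad8 were not called, at -0.23 (SE 0.17, adjusted p = 0.393) and -0.28 (SE 0.15, adjusted p = 0.235). With centred arrays 15 fell, since Mccc2 missed the threshold, beside 12.5% of all genes. With the drug in both lines 7 were lower, namely Bckdha, Bckdhb, Dbt, Hibch, Aldh6a1, Pcca and Pccb, against 4.77% of all genes, and the median was -0.32. With centred arrays 9 were lower, with Acadsb and Mcee added, beside 12.2% of all genes. The count of 7 fell to 2 when treated sh-PRDM16 replicate 1 was left out, 3 for replicate 2, 3 when treated sh-scr replicate 1 was left out and 2 for replicate 2, and Aldh6a1 and Dbt were called each time. Adipocyte and macrophage markers called in either comparison were lower, and the other marker lists went as given above for the TCA genes.

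**Figure D3:**
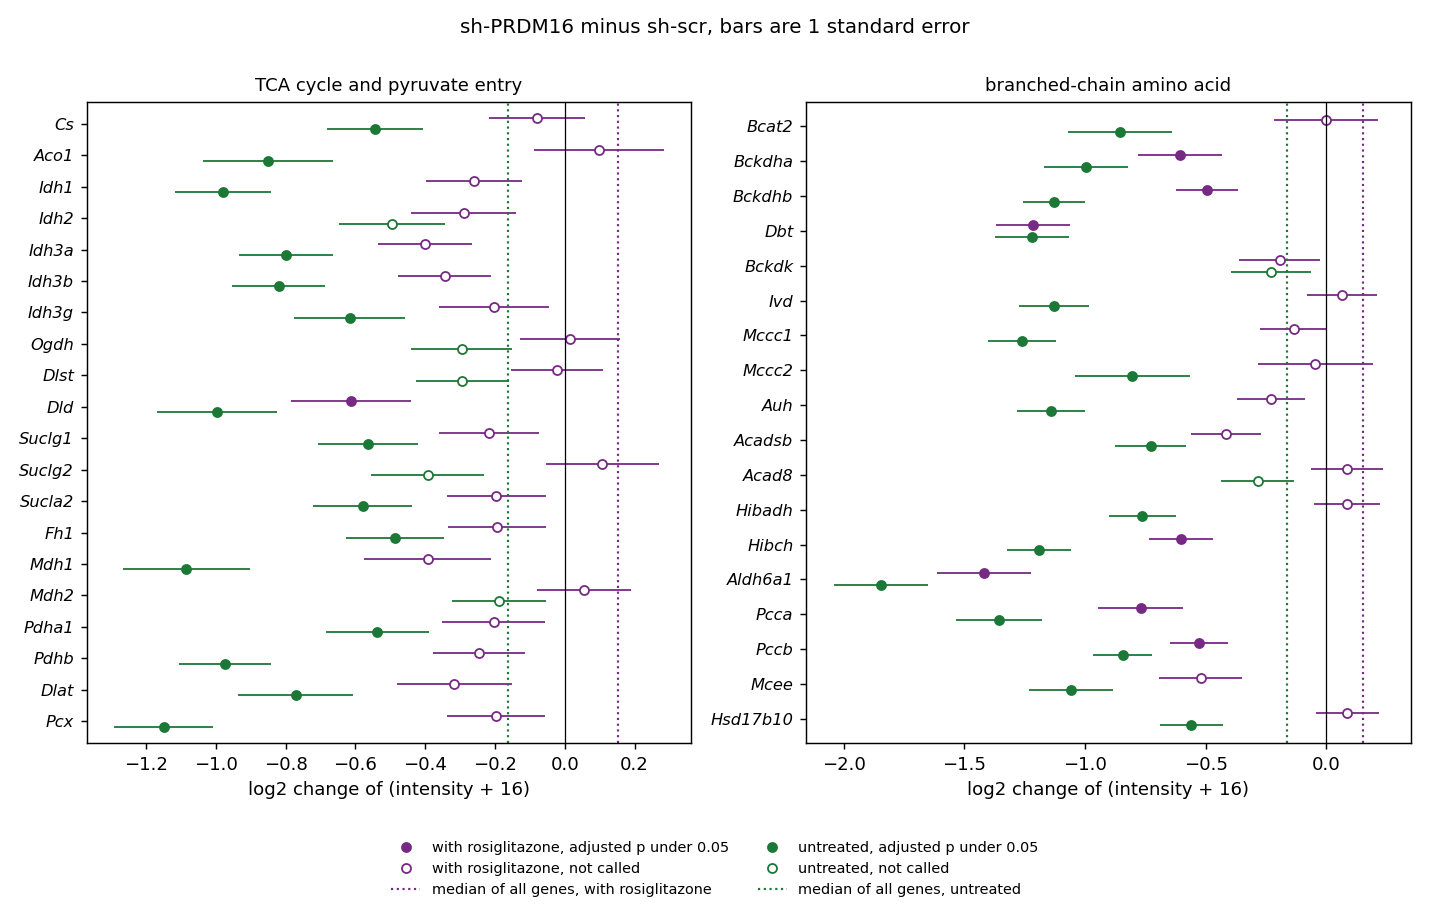
Log2 difference of intensity + 16 between sh-PRDM16 and sh-scr cells for the 20 TCA and pyruvate entry genes (left) and the 18 branched-chain genes (right), with rosiglitazone (purple) and untreated (green). Bars are 1 standard error, filled points passed an adjusted p of 0.05, and dotted lines mark the median of all genes (0.15 with the drug, -0.16 without). The green points lie left of 0 in both panels, and the purple points lie nearer to 0 except for Dbt, whose 2 points coincide.

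Bcat2, the mitochondrial transaminase that starts the pathway, was dim, with 40.3 and 29.4 in untreated sh-PRDM16 cells, against 60.3 and 93.5 in untreated sh-scr cells, and its log2 difference between the untreated lines was -0.85 (SE 0.22, adjusted p = 0.0258). The branched-chain ketoacid dehydrogenase complex carries out the committed step, and 1 of its 3 measured subunits listed here with this pathway rose with the drug on the deposited scale. Bckdhb, the β subunit of its dehydrogenase, had 809.6 and 893 in treated and 289 and 285 in untreated sh-PRDM16 cells, and 1162 and 1246 in treated and 618 and 675 in untreated sh-scr cells. Treated arrays lay above untreated arrays in each line, and sh-PRDM16 arrays below sh-scr arrays at each treatment. Bckdhb rose by 1.52 (SE 0.13, adjusted p = 8.69e-05) in sh-PRDM16 and 0.88 (SE 0.13, adjusted p = 0.00211) in sh-scr cells, in 16 of 16 alternatives each. It was lower in sh-PRDM16 cells without the drug by log2 1.13 (SE 0.13, adjusted p = 0.000566) and with it by 0.49 (SE 0.13, adjusted p = 0.0324), the second call being kept in 8 of 16 alternatives.

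Bckdha, the α subunit of the same dehydrogenase, had 485 and 499 in treated and 458 and 320.1 in untreated sh-PRDM16 cells, and 715 and 802 in treated and 734 and 828 in untreated sh-scr cells. All sh-PRDM16 arrays lay below all sh-scr arrays, and the treated and untreated arrays of sh-scr cells overlapped. Its difference between lines was -1.00 (SE 0.17, adjusted p = 0.00511) without the drug and -0.61 (SE 0.17, adjusted p = 0.0453) with it, and the call with the drug was kept in 7 of 16 alternatives. Dbt, the transacylase core of the complex, had 304 and 359 in treated and 283 and 224 in untreated sh-PRDM16 cells, and 831 and 747 in treated and 603 and 612 in untreated sh-scr cells. Every sh-PRDM16 array was below every sh-scr array, and the lines differed by -1.22 (SE 0.15, adjusted p = 0.000897) without the drug and -1.22 (SE 0.15, adjusted p = 0.00149) with it. Both Dbt calls held in 16 of 16 alternatives, and on the deposited scale the drug changed Dbt past the threshold in neither line, with 0.37 (SE 0.15, adjusted p = 0.155) in sh-PRDM16 and 0.37 (SE 0.15, adjusted p = 0.0846) in sh-scr cells. With centred arrays Dbt rose in both, by 0.36 (adjusted p = 0.0188) in sh-PRDM16 and 0.67 (adjusted p = 0.00216) in sh-scr cells, and it was also called in both with quantile normalization (adjusted p = 0.0180 and 0.00247). Bckdk, the kinase that inhibits the complex by phosphorylating it, was called in no comparison.

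The leucine arm held 2 of the 3 members that fell with the drug in sh-scr cells. Ivd, isovaleryl-CoA dehydrogenase, had 404 and 351 in treated and 295 and 263 in untreated sh-PRDM16 cells, and 357 and 362 in treated and 572 and 689 in untreated sh-scr cells. Untreated sh-scr arrays were the highest, and the treated arrays of both lines overlapped. Ivd fell with the drug in sh-scr cells by log2 0.78 (SE 0.14, adjusted p = 0.00600) and had 0.41 (SE 0.14, adjusted p = 0.0951) in sh-PRDM16 cells, while the untreated lines differed by -1.13 (SE 0.14, adjusted p = 0.00104). Its dimmer probe set had -0.52 (adjusted p = 0.0565 over 15008 probe sets) with the drug in sh-scr cells. Mccc1, the biotin-bearing α subunit of methylcrotonyl-CoA carboxylase, had 646 and 797 in treated and 514 and 507 in untreated sh-PRDM16 cells, and 789 and 789.9 in treated and 1184 and 1312 in untreated sh-scr cells. The untreated sh-scr arrays again stood highest, and the untreated sh-PRDM16 arrays lowest. Mccc1 fell with the drug in sh-scr cells by log2 0.65 (SE 0.14, adjusted p = 0.0101), had 0.48 (SE 0.14, adjusted p = 0.0533, or 0.0169 with centred arrays) in sh-PRDM16 cells, and differed between untreated lines by -1.26 (SE 0.14, adjusted p = 0.000529). The sh-scr fall of Mccc1 was lost without untreated (adjusted p = 0.0710) or treated (0.0543) sh-scr replicate 2. Mccc2, the β subunit, was near the dim end, with 46.8 and 27.9 in untreated sh-PRDM16 cells, against 62.2 and 91.4 in untreated sh-scr cells.

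The drug responses of Ivd and Mccc1 differed between the lines by more than the spread of the arrays on the deposited scale. The response in sh-PRDM16 cells minus that in sh-scr cells was log2 1.19 for Ivd (SE 0.20, 95% interval 0.73 to 1.65, adjusted p = 0.0405) and 1.13 for Mccc1 (SE 0.20, 95% interval 0.68 to 1.57, adjusted p = 0.0437). They were the only members called in this difference, 2 of 18, where 0.753% of all genes were called, 0.678% above 0 and 0.0753% below. With centred arrays 0.0108% of all genes were called above 0 and 0.043% below. The centred values of Ivd and Mccc1 were 0.88 (adjusted p = 0.136) and 0.81 (adjusted p = 0.0909), and on the deposited scale neither was called without any one of the 8 arrays. Of the 20 TCA genes none was called in this difference by limma (7 had an unadjusted p under 0.05), all 20 values were above 0, and their median was 0.41, beside 0.33 for all genes. The branched-chain median was 0.59. The dimmer probe set of Ivd had a difference of 0.73 (adjusted p = 0.193 by limma over 15008 probe sets).

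Auh, the methylglutaconyl-CoA hydratase of the leucine arm, had 639 and 778 in treated and 432 and 455 in untreated sh-PRDM16 cells, and 798 and 861 in treated and 946 and 1049 in untreated sh-scr cells. Untreated sh-PRDM16 arrays were lowest and untreated sh-scr arrays highest. Auh rose with the drug in sh-PRDM16 cells by 0.65 (SE 0.14, adjusted p = 0.0157), against -0.26 (SE 0.14, adjusted p = 0.164) in sh-scr cells, and differed between untreated lines by -1.14 (SE 0.14, adjusted p = 0.000854). Averaged over its probe sets, 2 of which were too dim to be tested, the rise became 0.17 (adjusted p = 0.568) and the difference between untreated lines -0.44 (adjusted p = 0.0915). The rise was also lost without untreated sh-PRDM16 replicate 1 (adjusted p = 0.0594) or 2 (0.0517), or treated sh-PRDM16 replicate 2 (0.121).

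In the isoleucine arm, Acadsb, the short/branched-chain acyl-CoA dehydrogenase, had 341 and 370.2 in treated and 493 and 391 in untreated sh-PRDM16 cells, and 502 and 458 in treated and 761 and 715 in untreated sh-scr cells. Treated arrays lay below untreated arrays in each line. Acadsb fell with the drug in sh-scr cells by log2 0.61 (SE 0.15, adjusted p = 0.0143), had -0.29 (SE 0.15, adjusted p = 0.236, or 0.0427 with centred arrays) in sh-PRDM16 cells, and differed between untreated lines by -0.73 (SE 0.15, adjusted p = 0.00963). The sh-scr fall was not called without untreated sh-scr replicate 1 (adjusted p = 0.0760), untreated sh-scr replicate 2 (0.0569) or treated sh-scr replicate 2 (0.0899). Hsd17b10, a mitochondrial dehydrogenase that acts later on the isoleucine path, was lower in untreated sh-PRDM16 cells by 0.56 (SE 0.13, adjusted p = 0.0185).

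In the valine arm the hydrolase and the dehydrogenase of hydroxyisobutyrate rose with the drug in sh-PRDM16 cells, whereas Acad8, which dehydrogenates isobutyryl-CoA, was called in no comparison by its brightest probe set. Its dimmer probe set was lower in untreated sh-PRDM16 than in untreated sh-scr cells, at -0.65 (adjusted p = 0.0118 over 15008 probe sets). Hibch, the hydrolase, had 729 and 864 in treated and 409.7 and 393 in untreated sh-PRDM16 cells, and 1188 and 1239.5 in treated and 927 and 947 in untreated sh-scr cells. The groups did not overlap, and the untreated sh-PRDM16 arrays were lowest. Hibch rose by 0.96 (SE 0.13, adjusted p = 0.00149) in sh-PRDM16 cells, against 0.37 (SE 0.13, adjusted p = 0.0534) in sh-scr cells on the deposited scale and 0.67 (adjusted p = 0.00362) there with centred arrays. It differed between the lines by -1.19 (SE 0.13, adjusted p = 0.000518) without the drug and -0.60 (SE 0.13, adjusted p = 0.0184) with it. The call with the drug was kept in 12 of 16 alternatives, and was lost with the mean of probe sets (-0.39, adjusted p = 0.0744). The dimmer probe set of Hibch had -1.04 (adjusted p = 0.00151 over 15008 probe sets) without the drug and -0.18 (adjusted p = 0.384) with it. Hibadh, the dehydrogenase, had 3929 and 4446 in treated and 2008 and 1736 in untreated sh-PRDM16 cells, and 3924 and 3942 in treated and 3033 and 3327 in untreated sh-scr cells. Untreated sh-PRDM16 arrays lay far below the others, and the treated sh-PRDM16 arrays reached the treated sh-scr arrays. Hibadh rose by 1.16 (SE 0.14, adjusted p = 0.000615) in sh-PRDM16 cells, against 0.31 (SE 0.14, adjusted p = 0.103) in sh-scr cells on the deposited scale and 0.61 (adjusted p = 0.00223) there with centred arrays. It differed between untreated lines by -0.76 (SE 0.14, adjusted p = 0.00588), whereas with the drug the difference was 0.09 (SE 0.14, adjusted p = 0.681).

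Aldh6a1, the methylmalonate semialdehyde dehydrogenase that ends the valine arm, showed the largest difference between lines of the 38 members. It had 502 and 736 in treated and 509 and 408 in untreated sh-PRDM16 cells, and 1657 and 1647 in treated and 1526 and 1850.1 in untreated sh-scr cells. The highest of the 4 sh-PRDM16 arrays read 736 and the lowest of the 4 sh-scr arrays 1526. The log2 difference was -1.85 (SE 0.20, adjusted p = 0.000437) without the drug and -1.42 (SE 0.20, adjusted p = 0.00250) with it, called in 16 of 16 alternatives each. The drug left it at 0.40 (SE 0.20, adjusted p = 0.225) in sh-PRDM16 and -0.02 (SE 0.20, adjusted p = 0.927) in sh-scr cells.

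The propionyl-CoA steps, shared by isoleucine and valine, were lower in sh-PRDM16 cells as well. Pcca, the biotin-bearing α subunit of propionyl-CoA carboxylase, had 1009 and 949 in treated and 768 and 548 in untreated sh-PRDM16 cells, and 1582 and 1779 in treated and 1546 and 1838 in untreated sh-scr cells. The lines did not overlap at either treatment, and the treated and untreated sh-scr arrays did. Pcca differed between lines by -1.36 (SE 0.18, adjusted p = 0.00112) without the drug and -0.77 (SE 0.18, adjusted p = 0.0217) with it, and the call with the drug was kept in 12 of 16 alternatives. Pccb, the β subunit, differed by -0.84 (SE 0.12, adjusted p = 0.00190) and -0.53 (SE 0.12, adjusted p = 0.0216) in the same 2 comparisons, and Mcee, methylmalonyl-CoA epimerase, by -1.06 (SE 0.17, adjusted p = 0.00369) and -0.52 (SE 0.17, adjusted p = 0.0706, or 0.00973 with centred arrays).

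**Figure D4:**
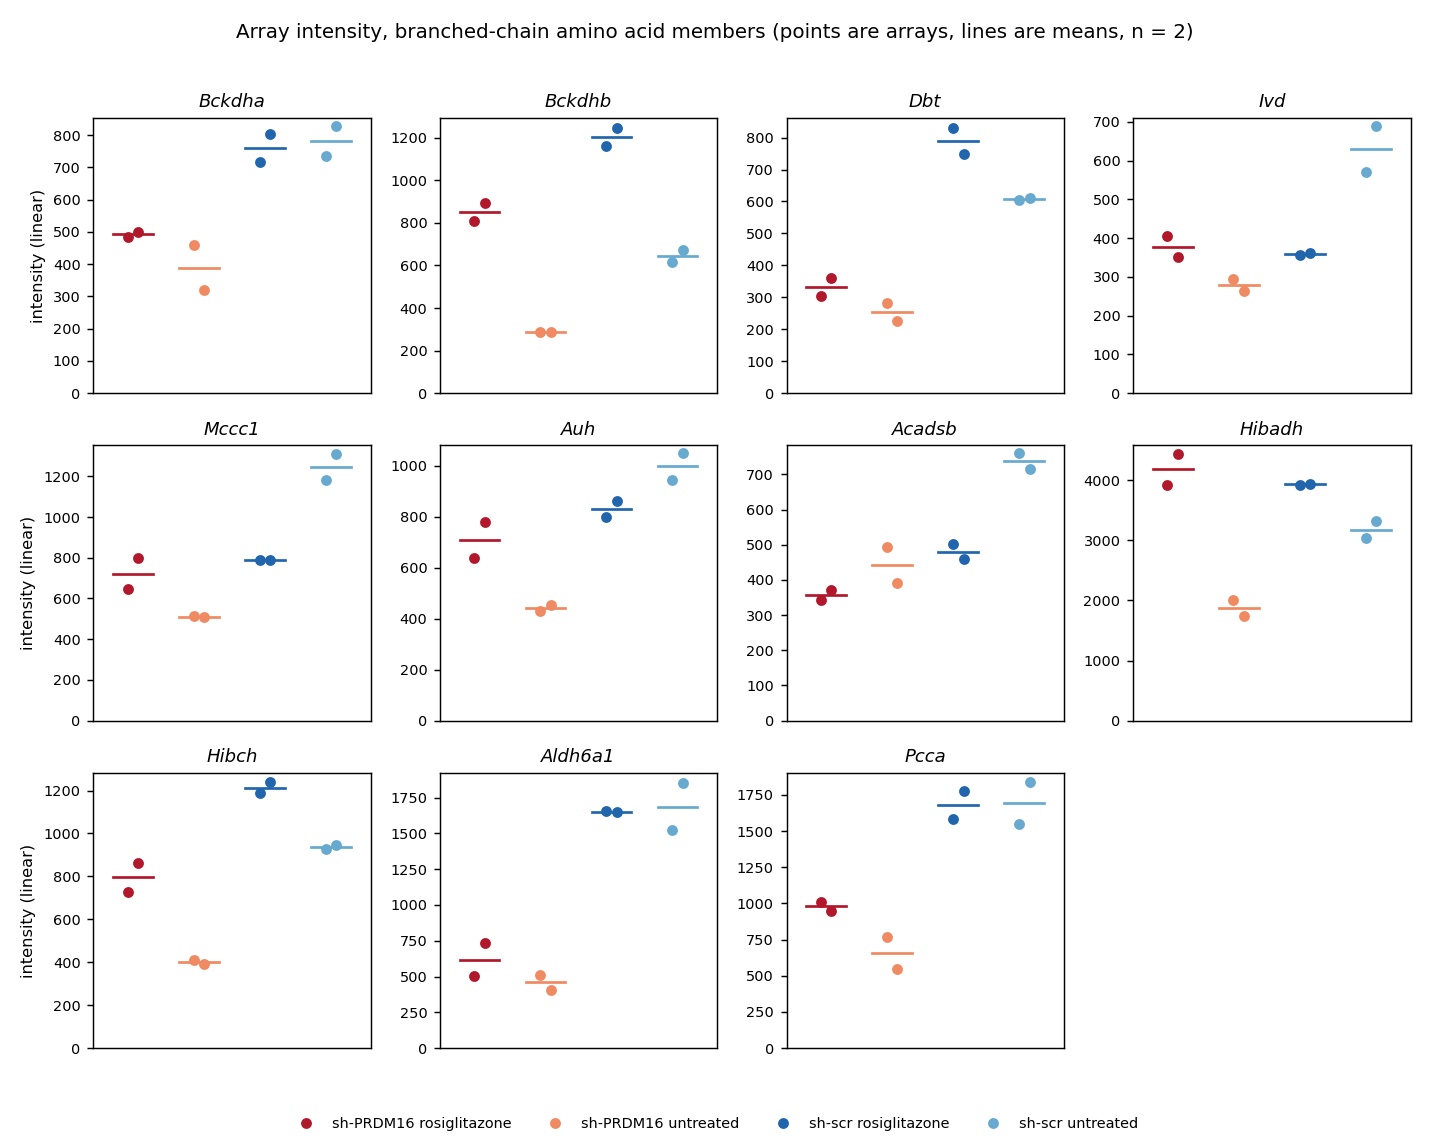
Array intensity (linear scale, from 0) of the 11 branched-chain genes with the largest called changes, in treated and untreated sh-PRDM16 cells and treated and untreated sh-scr cells. Points are single arrays and lines are means of 2 arrays. For Bckdha, Dbt, Aldh6a1 and Pcca both sh-PRDM16 groups lie below both sh-scr groups, and for Ivd and Mccc1 the untreated sh-scr arrays stand above the other 6.

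Several members have more than 1 probe set, and these mostly moved together. Among 18 genes with several tested probe sets, none had calls in opposite directions in any comparison. Some were called by only part of their probe sets, 5 genes for the drug in sh-PRDM16 and 3 in sh-scr cells. Between the lines these were 6 genes without the drug and 3 with it. Sizes differed too. The second probe set of Aco1 changed by 0.60 (adjusted p = 0.0212 over 15008 probe sets) with the drug in sh-scr cells, where the brighter had 0.01. Between treated lines, the brighter and dimmer probe sets of Pdhb had -0.25 and -0.82, and those of Hibch -0.60 and -0.18. The 3 probe sets of Idh3a changed by 1.03 to 1.24 in sh-scr cells. The probe sets used for Aco1, Mdh1 and Acadsb (suffix x) and for Idh1, Idh3b, Hibadh and Hibch (suffix s) carry suffixes that mark possible hybridization to other transcripts, so their values are less certain.

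Other genes of the same pathways were counted from lists of neighbours, of which 21 of 29 around the TCA cycle and 23 of 26 around the branched-chain pathway were tested. In sh-PRDM16 cells 12 TCA neighbours rose with the drug and none fell, where 10.2% of all genes rose and 3.35% fell, and in sh-scr cells 8 rose and 3 fell, where 5.24% rose and 32.3% fell. Pdk4, a kinase that switches pyruvate dehydrogenase off, rose by 3.48 (SE 0.12, adjusted p = 6.54e-07) in sh-PRDM16 and 3.51 (SE 0.12, adjusted p = 1.05e-06) in sh-scr cells, and Nnt, the mitochondrial transhydrogenase, fell in sh-scr cells by 1.00 (SE 0.15, adjusted p = 0.00228). Among untreated cells 12 TCA neighbours were lower in sh-PRDM16 and none higher, beside 15.7% and 1.98% of all genes, led by Pck1 (-1.55 (SE 0.17, adjusted p = 0.000516)), which makes phosphoenolpyruvate from oxaloacetate. With the drug 5 were lower and 4 higher, beside 4.77% and 10.6% of all genes. With centred arrays 12 TCA neighbours were lower and 4 higher in that comparison, beside 12.2% and 12.8% of all genes. Without the drug 13 were then lower and 2 higher, beside 12.5% and 9.51% of all genes. For the drug response with centred arrays, 13 rose and 1 fell in sh-PRDM16 cells, where 15% of all genes rose and 9.62% fell. In sh-scr cells 15 rose and 2 fell, where 14.7% of all genes rose and 11.3% fell. Against the same shares, of the branched-chain neighbours 12 rose and none fell with the drug in sh-PRDM16 cells, and 6 rose and 4 fell in sh-scr cells. The peroxisomal enzyme Ehhadh rose most in both, by 2.91 (SE 0.15, adjusted p = 4.74e-06) in sh-PRDM16 and 2.89 (SE 0.15, adjusted p = 6.40e-06) in sh-scr cells, and Klf15, a transcription factor known to act on branched-chain amino acid genes, fell in sh-scr cells by 2.42 (SE 0.48, adjusted p = 0.00760). Without the drug 15 branched-chain neighbours were lower in sh-PRDM16 cells and 1, the cytosolic transaminase Bcat1, was higher (0.66 (SE 0.17, adjusted p = 0.0258)). With the drug 4 were lower and 2 higher. With centred arrays 15 were lower and 2 higher without the drug, and 10 were lower and 2 higher with it. None of either list was called in the difference of the drug responses by limma, with 10 and 11 at an unadjusted p under 0.05.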

How the data were processed

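Per the labels' protocols, RNA extracted with Trizol was made into biotinylated cRNA for the arrays. The authors deposited a table of 22690 probe sets by 8 arrays holding intensity values on a linear scale, from 0.1 to 22736, with summarization and normalization not given in the sources used here. Array medians differed by at most log2 0.38, so the deposited intensity scale was kept, and median centring and quantile normalization were alternatives. No detection calls were used, and the 2 arrays per group limit the precision.

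Probe sets with 1 gene in the platform annotation (20380) were used, and 691 with several genes and 1555 not listed were left out. Each gene was measured by its brightest probe set over all arrays, and the 25% of genes with the lowest mean were left out. Values were taken as log2(intensity + 16), so folds of dim genes are understated. limma 3.58.1 in R 4.3.3 (lmFit, eBayes) was run as 1 fit over the 8 arrays with group means as coefficients, giving 4 residual and 5.23 prior degrees of freedom. The fit was also run on simulated data with few changed genes and no shift between arrays. That run therefore cannot show how the counts fare under the shift of all genes seen here. Two-sided p-values were adjusted after Benjamini and Hochberg over 9293 genes. Samples were grouped by their titles. The median SE of a comparison was log2 0.15.

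The members, the neighbour lists and the marker lists were chosen with earlier results of these data known. Values in each array are given for the 4 members of each pathway with the largest called change in each comparison and for those called in the difference of responses, and of the neighbours the 2 with the largest called change in each direction could be named. Further alternatives were no filter, the lowest 50% of genes left out, pseudocounts of 1 and 64, averaging a gene's probe sets, a replicate block and leaving out each array. In the last, a lone array is assumed to vary like the other groups.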

Additional observations from a re-analysis of the deposited data

Results flagged for a closer look

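Ivd and Mccc1, both of leucine breakdown, responded to rosiglitazone differently in the 2 lines by the test of that difference in limma. The response in sh-PRDM16 minus that in sh-scr cells was log2 1.19 for Ivd and 1.13 for Mccc1. In the limma fit over 15008 probe sets neither passed the threshold (adjusted p = 0.0657 for Ivd and 0.0690 for Mccc1). The dimmer probe set of Ivd had a difference of 0.73 (adjusted p = 0.193) there. Ivd was called in 3 and Mccc1 in 4 of 16 alternative settings, with the same sign in each.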

How the results depend on the processing

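Counts of called genes depended on the scaling and the filter, and no called change of the 20 members given by array changed sign in 16 alternative settings. The number of arrays limits the precision, intensities near the background have no detection call, and the cause of the changes below was not tested unless named.

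For rosiglitazone in sh-PRDM16 cells, branched-chain calls were 11 with median-centred arrays, 10 with quantile normalization, 10 with the lowest 50% left out and 9 with pseudocount 64, and calls over all genes were 2289 when centred and 2495 under quantile normalization, where falls outnumbered rises. In sh-scr cells TCA calls were 15 when centred, 14 under quantile normalization, 12 with the lowest 50% left out (2 falls among them) and 11 with pseudocount 64, branched-chain calls were 7 when centred and 7 under quantile normalization, rises then outnumbering falls, and all genes gave 2417 when centred, also mostly rises. For sh-PRDM16 against sh-scr with the drug, TCA calls were 13 when centred, 12 under quantile normalization, 0 with no filter, 3 with the lowest 50% left out, 0 with pseudocount 1, 3 with pseudocount 64 and 3 with the mean of probe sets. Branched-chain calls there were 4 with no filter, and all genes gave 2324 when centred, 2336 under quantile normalization, 807 with no filter and 2405 with pseudocount 64. For the difference of responses, TCA calls were 5 with the lowest 50% left out and 5 with pseudocount 64. Branched-chain calls were 0 when centred, under quantile normalization, with no filter or with pseudocount 1, 8 with the lowest 50% left out, 5 with pseudocount 64 and 1 with the mean of probe sets. All genes gave 5 when centred, 6 under quantile normalization, 0 with no filter, 1033 with the lowest 50% left out, 13 with pseudocount 1 and 782 with pseudocount 64.

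Leaving out 1 array at a time gave these ranges, with fewer arrays in each fit. For rosiglitazone in sh-PRDM16 cells they were 9 to 18 TCA, 3 to 6 branched-chain and 635 to 1177 genes in all, and in sh-scr cells 1 to 9, 2 to 5 and 1090 to 3972. For sh-PRDM16 against sh-scr they were 7 to 14, 12 to 16 and 675 to 1764 without the drug, and 0 to 1, 2 to 9 and 502 to 1828 with it, where 586 genes without treated sh-PRDM16 replicate 2 were mostly falls. For the difference they were 0 to 0, 0 to 0 and 0 to 75.

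The replicate numbers did not pair the arrays, since deviations from the group means of same-numbered arrays correlated at -0.02 to 0.05. With the replicate number as a block, Bckdha (adjusted p = 0.0520) and Bckdhb (0.0506) missed the threshold for sh-PRDM16 against sh-scr with the drug, which left 5 branched-chain calls.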

Other observations

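Genes beside the pathways also differed between groups. Pdk2, also a pyruvate dehydrogenase kinase, had a drug response of 1.43 (SE 0.14, adjusted p = 0.000182) on the log2 scale in sh-PRDM16 cells, and Pdk3, another kinase of this kind, fell in sh-scr cells by 0.61 (SE 0.15, adjusted p = 0.0147). Pdk4 was lower in sh-PRDM16 than in sh-scr cells both without the drug, at -1.53 (SE 0.12, adjusted p = 0.000115), and with it, at -1.56 (SE 0.12, adjusted p = 0.000128). Pck1 stood at -1.87 (SE 0.17, adjusted p = 0.000300) in treated sh-PRDM16 against treated sh-scr cells, where Got2, the mitochondrial aspartate transaminase, and Me2, the mitochondrial malic enzyme, were higher by 0.74 and 0.73 (adjusted p = 0.00965 and 0.0170).

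On the side of the branched-chain pathway, the thiolase Acaa2 rose with the drug by 1.88 (SE 0.15, adjusted p = 6.96e-05) in sh-PRDM16 and 1.51 (SE 0.15, adjusted p = 0.000368) in sh-scr cells. Slc7a5, a subunit of a transporter of large neutral amino acids, fell with the drug in sh-scr cells by 0.84 (SE 0.13, adjusted p = 0.00304). It was higher in treated sh-PRDM16 than in treated sh-scr cells, at 0.74 (SE 0.13, adjusted p = 0.00794), as was Bcat1 at 0.74 (SE 0.17, adjusted p = 0.0202). Ehhadh was lower in sh-PRDM16 than in sh-scr cells by 2.24 without the drug and 2.21 with it (adjusted p = 3.77e-05 and 4.13e-05). The 4 comparisons share arrays in pairs, so their values are not independent of one another.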
